A study of Mus musculus with 9 samples.

Results

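The 36 genes described here are the chemokine, NF-kB and inflammatory genes of stimulated fibroblasts, taken by their symbols from a table of 22068 mouse genes. All 36 were listed, and they comprise 7 CXC and CX3C chemokines, 5 CC chemokines, 4 genes of the colony-stimulating factors and the interleukin 33 axis, 4 NF-kB subunits, 7 inhibitors and feedback regulators, 7 effector, acute phase and C/EBP genes, and 2 adhesion molecules. They were measured by polyA RNA-seq in primary C57Bl/6 mouse embryonic fibroblasts (MEFs, the cells that build connective tissue, grown from embryos) at passage 2. The control MEFs were electroporated with a plasmid that held a puromycin resistance gene and no homeobox gene. The other conditions received the same resistance gene with V5-tagged human CRX (eutherian CRX) or V5-tagged opossum CRX (metatherian CRX), and cells of all 3 conditions were selected in puromycin for 5 days. The promoter that drives CRX in the plasmids is not given in the sources used here. Each condition has 3 libraries, numbered 1 to 3. CRX is a homeodomain transcription factor of photoreceptors, and its ectopic expression in fibroblasts is not its normal setting. The labels do not say whether the libraries of a condition came from separate cultures, so that the p-values measure the spread between these libraries, which may be technical.

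NF-kB is a family of dimeric transcription factors, held in the cytoplasm by IkB proteins in resting cells. Tumour necrosis factor, interleukin 1 and Toll-like receptor ligands activate a kinase complex that marks IkB for destruction, and the freed dimers of subunits such as Rela and Nfkb1 enter the nucleus. There they switch on chemokines, which attract leukocytes, adhesion molecules, acute phase genes, and their own inhibitors, among them Nfkbia and Tnfaip3, which end the response. Fibroblasts answer such signals and are a source of chemokines in inflamed tissue. Some of the genes, such as Cxcl12 and Cxcl14, are also made by resting fibroblasts and depend less on NF-kB.

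To show the DNA that NF-kB factors can meet at these genes, RefSeq promoter windows of 300 bases on GRCm38.p6, 250 before and 50 after an annotated transcription start, were searched on both strands for the 10-letter NF-kB consensus and for TAATCC, the core motif that CRX binds. Windows were at hand for 25 of the 36 genes. The NF-kB consensus was found in 11 of them (44%), against 9.55% of 27025 genes with a window. The 11 were Cxcl1, Cxcl2, Ccl9, Ccl20, Csf1, Nfkb2, Nfkbia, Nfkbie, Tnfaip2, Tnfaip3 and Ptx3. Since the genes were chosen as NF-kB genes, this share describes the choice. TAATCC was found in 4 of the 25 (16%), namely Cxcl1, Ptx3, Il1rl1 and Saa3, against 8.14% of all genes. The windows of 4 genes on which the results below turn are printed 5′ to 3′ on the strand of the gene, with matches to either motif in capitals. Cxcl1 (chr5:90890995-90891294, plus strand) and Ptx3 (chr3:66219637-66219936, plus strand) hold both motifs, and Csf1 (chr3:107760420-107760719, minus strand) and Nfkbia (chr12:55492598-55492897, minus strand) hold the NF-kB consensus alone.
Cxcl1: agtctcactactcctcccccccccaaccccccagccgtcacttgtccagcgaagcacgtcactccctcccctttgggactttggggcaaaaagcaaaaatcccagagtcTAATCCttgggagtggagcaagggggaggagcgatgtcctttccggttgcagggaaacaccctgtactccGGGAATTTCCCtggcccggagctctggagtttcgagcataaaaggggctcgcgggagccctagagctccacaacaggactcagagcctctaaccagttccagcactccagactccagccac
Ptx3: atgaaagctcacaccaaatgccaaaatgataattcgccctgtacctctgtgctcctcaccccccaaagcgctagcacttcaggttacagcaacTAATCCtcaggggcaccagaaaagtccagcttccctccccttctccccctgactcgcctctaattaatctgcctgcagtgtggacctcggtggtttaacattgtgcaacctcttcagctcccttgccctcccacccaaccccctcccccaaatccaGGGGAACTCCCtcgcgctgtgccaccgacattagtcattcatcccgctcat
Csf1: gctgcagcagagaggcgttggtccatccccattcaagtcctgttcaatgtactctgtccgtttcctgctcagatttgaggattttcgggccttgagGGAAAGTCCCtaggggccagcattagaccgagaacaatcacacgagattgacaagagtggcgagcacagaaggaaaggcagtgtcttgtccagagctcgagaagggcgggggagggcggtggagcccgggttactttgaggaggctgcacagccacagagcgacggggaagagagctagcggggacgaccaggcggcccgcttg
Nfkbia: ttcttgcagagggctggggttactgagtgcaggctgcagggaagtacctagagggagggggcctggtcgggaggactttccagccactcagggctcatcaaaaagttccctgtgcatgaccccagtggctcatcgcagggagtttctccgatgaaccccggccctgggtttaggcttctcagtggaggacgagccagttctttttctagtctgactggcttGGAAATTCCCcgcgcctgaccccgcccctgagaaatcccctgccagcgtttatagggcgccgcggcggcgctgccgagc
In Cxcl1 the NF-kB matches on the 2 strands overlap and begin 71 and 70 bases before the start, and TAATCC lies 141 bases before it. In Ptx3, TAATCC lies 157 bases before the start, while the overlapping NF-kB matches lie at the start itself. The matches of Csf1 and Nfkbia begin 154 and 29 bases before the start. A match is a run of letters and not a measured binding site, and binding was not measured in these libraries.

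The libraries held 54145701 to 94699657 counts on genes, at least 67340091 in each eutherian CRX library and at least 62615692 in each metatherian CRX library. The row of mouse Crx served as a check of the eutherian CRX labels alone. It held 627, 995 and 313 counts in eutherian CRX libraries 1, 2 and 3 and 0 in the control libraries. In the metatherian CRX libraries, whose opossum sequence need not align to it, it held 4, 0 and 0. The row therefore cannot tell metatherian CRX libraries from control libraries. A count of 0 allows up to 3 counts. The libraries numbered 3 stood apart. On the first principal component, with 56.0% of the variance, eutherian CRX library 3 lay at 55.0 and libraries 1 and 2 of the same condition at -27.4 and -30.9. Control library 3 lay at 6.81 beside -32.3 and -21.4, and metatherian CRX library 3 at 36.9 beside 0.675 and 12.7. The 8 fibroblast markers summed to 20826 to 23624 CPM (counts scaled to library size, with TMM factors) in control and to 17536, 17156 and 7398 CPM in eutherian CRX libraries 1, 2 and 3. They summed to 15910, 13947 and 7579 CPM in metatherian CRX libraries 1, 2 and 3, with Col1a1 the most abundant marker. Markers of macrophages and leukocytes summed to at most 44.6 CPM in any library and endothelial markers to at most 18.4 CPM. Epithelial markers summed to 12.5 CPM in eutherian CRX library 3, 9.01 CPM in metatherian CRX library 3 and at most 3.52 CPM in the other 7 libraries. In bulk RNA, fewer cells of a type and less RNA per cell cannot be told apart. Results are therefore given below with and without the libraries numbered 3.

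Of the 36 genes, 27 cleared the filters, edgeR's filterByExpr and a mean FPKM (counts scaled to library size and to kilobases of exon) over 2 in 1 condition or more, as did 10100 genes in all. A gene could pass through 1 high condition, so that the 27 are not all of the 36. The 9 genes left out were Cxcl2, Cxcl16, Ccl9, Csf3, Nfkbie, Tnfaip3, Traf1, Saa3 and Lcn2. All of these except Csf3 passed filterByExpr. The filter took FPKM per library total, whereas the FPKM printed here use totals scaled by TMM factors, so that Nfkbie had a mean of 1.97 in control on the scale of the filter and of 2.03 on the printed scale. Per length, the pentraxin Ptx3 had the highest level in control, with a mean FPKM of 357. It was followed by Csf1 at 244, Cxcl12 at 144, Il1rl1 at 135 and Cxcl14 at 127 mean FPKM. The spread around the first of these was wide, as Ptx3 varied by 518 (SD, n = 3) around a mean of 686 CPM and Csf1 by 395 (SD, n = 3) around 1079 CPM in control. The level of Ptx3 was therefore not separated from those of its neighbours beyond the spread between libraries. With eutherian CRX the mean FPKM of Ptx3 was 295 and that of Csf1 was 263. With metatherian CRX the order began with Csf1 at 168 and Il1rl1 at 105, and Ptx3 had a mean FPKM of 45.3. At the low end, the acute phase genes Lcn2 and Saa3, the adaptor Traf1 and the growth factor Csf3 had a mean FPKM between 0.00308 and 1.85 in every condition.

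**Figure D1:**
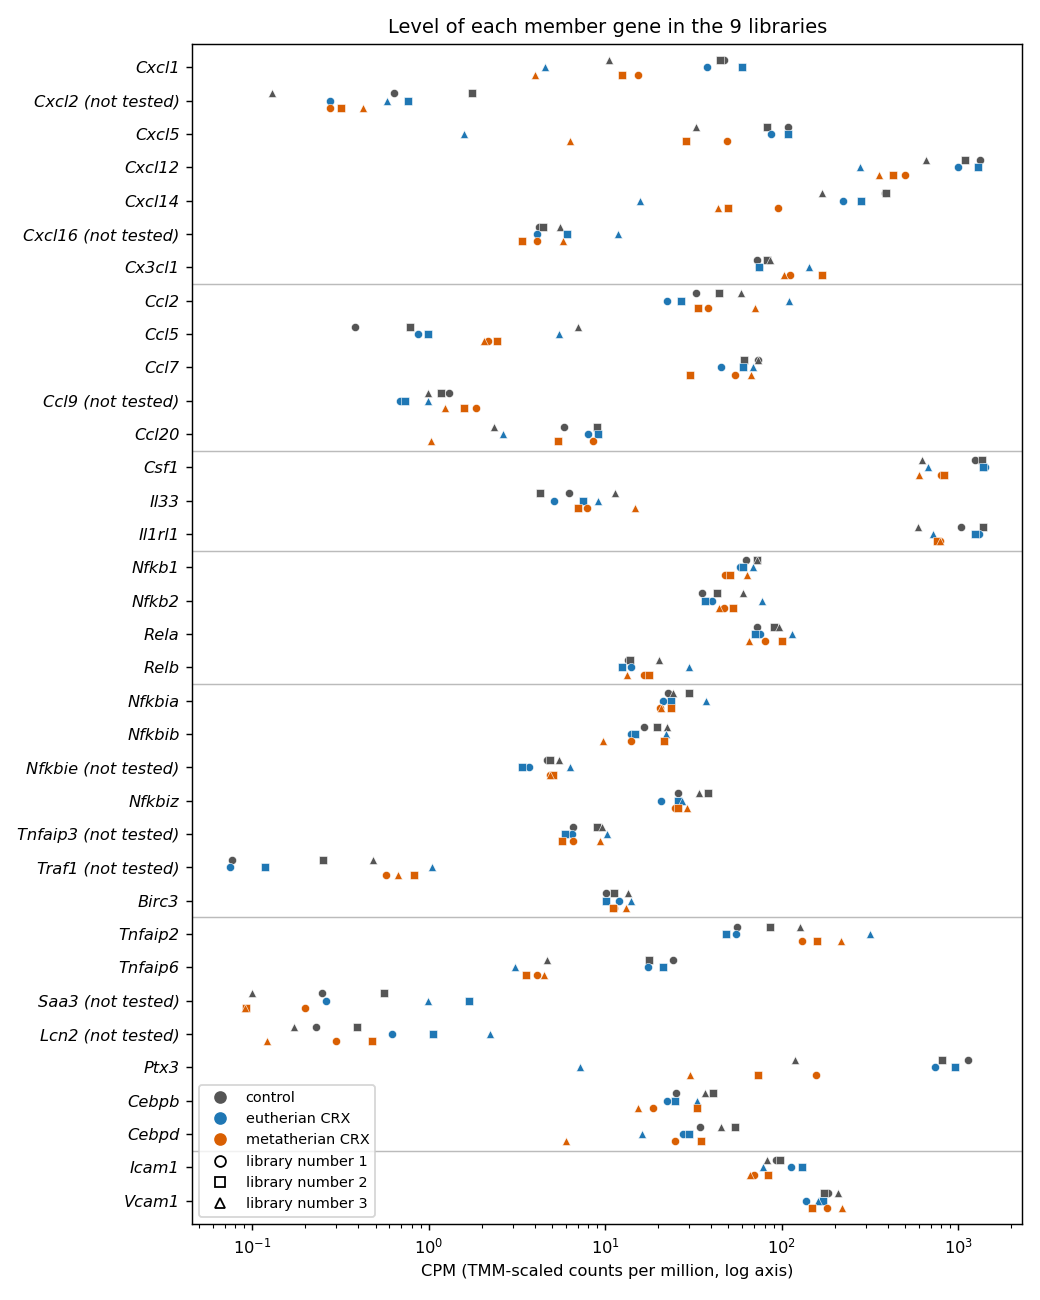
CPM (log axis) of the 35 genes that passed filterByExpr in each of the 9 libraries, by role, with colours for the conditions and symbols for the library number. Ptx3, Cxcl5 and Cxcl14 span the widest ranges among the tested genes, with Ptx3 between 7.18 and 1133 CPM, whereas Birc3 lies between 10.1 and 14.1 CPM.

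Metatherian CRX was compared with control to ask which of the genes responded to the opossum protein. The chemokines Cxcl1, Cxcl12 and Cxcl14, the pentraxin Ptx3, the TNF-induced matrix protein Tnfaip6 and the C/EBP gene Cebpd were lower, at 16.9% to 43.9% of the control level in the fit. Csf1, Nfkb1 and Icam1 were lower at 72.4%, 77.5% and 80.0%, and the chemokine Cx3cl1 was higher, at 159%. All of these had an unadjusted p under 0.05. None of the 27 genes passed an adjusted p of 0.05 over all 10100 genes in edgeR's quasi-likelihood test, which was blocked on the replicate number. Whether libraries of the same number were prepared together is not established. The smallest adjusted p was 0.10, that of Cxcl1. At an unadjusted p under 0.05, 9 of the 27 were lower (10.5% of all genes tested) and 1 was higher (9.04%), and the 10 genes in either direction stand beside 19.5% of all genes. In the same comparison 3 of the 10100 genes passed the adjusted threshold, all lower (0.0297%). DESeq2 called 5 of the 27 (9.94% of all genes), and limma voom with library quality weights called 21 (46.2%). The median log2 fold change of the 27 was -0.32, beside -0.0080 over all genes, and 19 were below 0, as were 51.2% of all genes. The errors were large: the median standard error was 0.28 on the log2 scale for these genes and 0.15 for all genes.

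**Figure D2:**
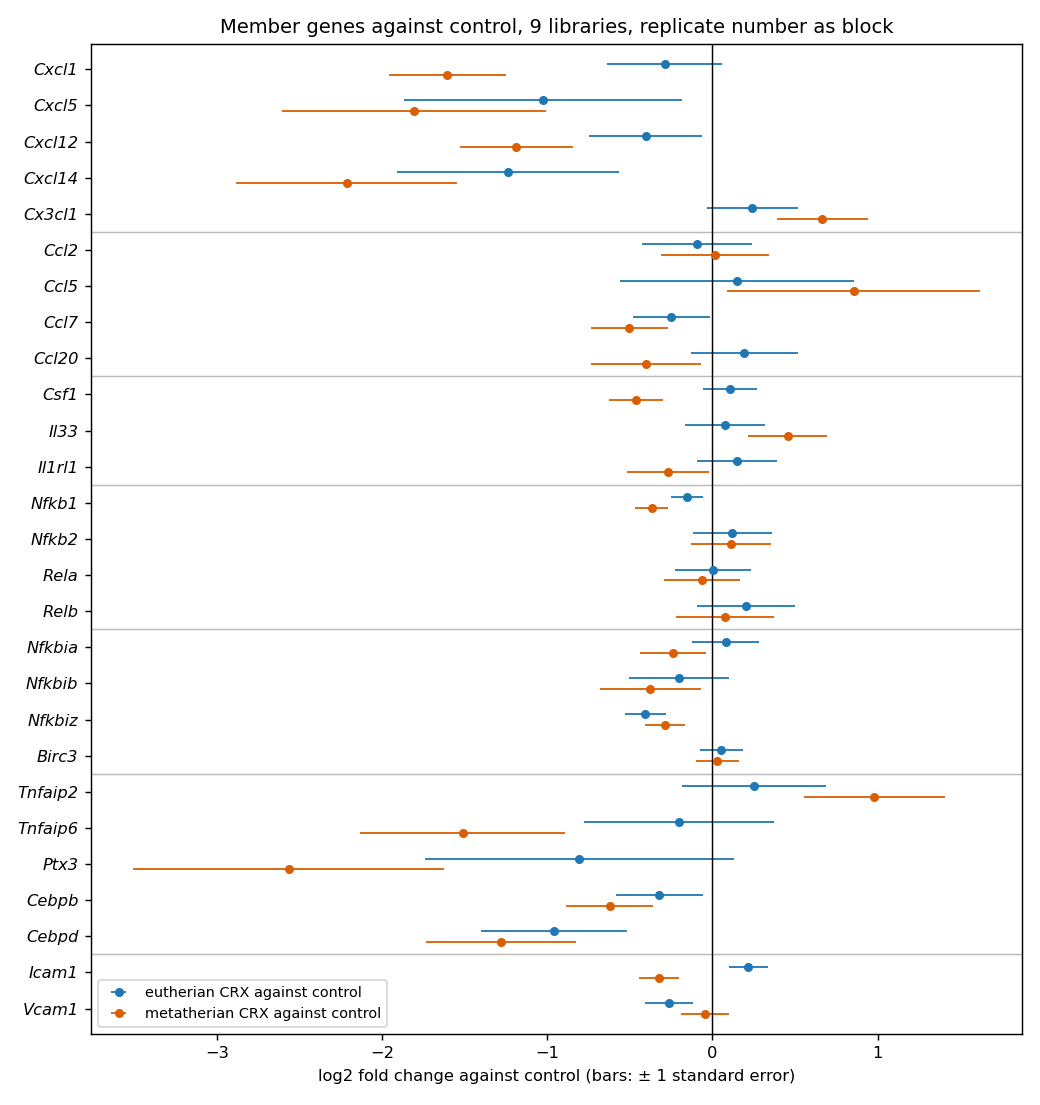
Log2 fold change against control of the 27 tested genes (horizontal axis; bars are ± 1 standard error) with eutherian CRX and metatherian CRX, from the fit over 9 libraries blocked on the replicate number. The largest values belong to Ptx3 (-2.56) and Cxcl14 (-2.22) with metatherian CRX, and the widest error bars to Ptx3 and Cxcl5.

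Cxcl1 (chr5:90891245-90893121, plus strand) attracts neutrophils. It stood at 47.4, 44.8 and 10.5 CPM in control libraries 1, 2 and 3, at 37.8, 59.4 and 4.56 CPM with eutherian CRX, and at 15.3, 12.5 and 4.01 CPM with metatherian CRX. Library 3 was the lowest of each condition, and the metatherian CRX libraries 1 and 2 were below libraries 1 and 2 of both other conditions, while control library 3 was below them in turn. The log2 fold change of metatherian CRX against control was -1.60 (SE 0.35, edgeR adjusted p = 0.10), and each of the 3 same-numbered pairs was lower. Against eutherian CRX it was -1.32 (SE 0.36, edgeR adjusted p = 0.31), and eutherian CRX differed from control by -0.29 (SE 0.35, edgeR adjusted p = 0.89).

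Cxcl12 (chr6:117168535-117181368, plus strand) holds stem cells and leukocytes in their niches and was the most abundant chemokine per length in control and with eutherian CRX. With metatherian CRX its mean FPKM was 59.9, beside 63.1 for Ccl7. Its level was 1338, 1100.5 and 658 CPM in control, 992, 1302 and 278 CPM with eutherian CRX, and 499, 429 and 358 CPM with metatherian CRX. All 3 metatherian CRX libraries were below all 3 control libraries, and the lowest library of all was eutherian CRX library 3. The log2 fold change was -1.19 (SE 0.34, edgeR adjusted p = 0.15) with metatherian CRX and -0.40 (SE 0.34, edgeR adjusted p = 0.83) with eutherian CRX. Cxcl14 (chr13:56288643-56296792, minus strand), a chemokine made by resting fibroblasts and epithelia, measured 384, 388 and 169 CPM in control. It measured 222, 283 and 15.7 CPM with eutherian CRX and 95.02, 49.8 and 43.5 CPM with metatherian CRX. Here too the metatherian CRX and control libraries did not overlap. Eutherian CRX library 3 was the lowest of all 9, and eutherian CRX libraries 1 and 2 lay between control library 3 and the other control libraries. Cxcl14 had a log2 fold change of -2.22 (SE 0.67, edgeR adjusted p = 0.16) with metatherian CRX and of -1.24 (SE 0.67, edgeR adjusted p = 0.70) with eutherian CRX.

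Cx3cl1 (chr8:94772180-94782427, plus strand), the membrane-bound fractalkine, ran the other way. It was found at 72.9, 83.1 and 86.2 CPM in control, 74.9, 74.4 and 142 CPM with eutherian CRX, and 111, 169 and 103 CPM with metatherian CRX. All metatherian CRX libraries were above all control libraries, and eutherian CRX library 3 lay within their range. The log2 fold change with metatherian CRX was 0.67 (SE 0.28, edgeR adjusted p = 0.25). Cxcl5, another attractant of neutrophils, ranged from 1.59 to 109 CPM over the 9 libraries, with a log2 fold change of -1.81 (SE 0.80, edgeR adjusted p = 0.27) with metatherian CRX and -1.03 (SE 0.84) with eutherian CRX. Part of its exons, as of those of Cxcl16, are listed on unplaced scaffolds and were counted together with the copy on the chromosome. Cxcl2 ranged from 0.129 to 1.76 CPM and Cxcl16, a membrane-bound chemokine, from 3.38 to 11.8 CPM.

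The CC chemokines, which attract monocytes and lymphocytes, did not share a direction, with 2 of the 4 tested below 0 and 2 above 0 in metatherian CRX against control. Ccl7 (chr11:82045712-82047525, plus strand) had the highest mean FPKM of the 5. It measured 73.6, 60.8 and 73.6 CPM in control, 45.5, 60.2 and 69.1 CPM with eutherian CRX, and 54.7, 30.3 and 66.6 CPM with metatherian CRX. The 3 ranges overlapped, and the log2 fold change with metatherian CRX was -0.50 (SE 0.23, edgeR adjusted p = 0.30). Ccl2, the monocyte attractant next to it on the chromosome, ranged from 22.4 to 110 CPM with a log2 fold change of 0.017 (SE 0.33) with metatherian CRX and -0.093 (SE 0.33) with eutherian CRX. For Ccl20 the values were -0.40 (SE 0.33) and 0.19 (SE 0.32), over a range of 1.03 to 9.10 CPM. Ccl5 ranged from 0.384 to 7.06 CPM, with log2 fold changes of 0.86 (SE 0.76) and 0.15 (SE 0.71). Ccl9 stayed between 0.686 and 1.85 CPM. Among the 36 genes, Cxcl1 with Cxcl2 and Ccl2 with Ccl7 are related in sequence, and the handling of reads that align to several places is not given in the sources used here.

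Csf1 (chr3:107741048-107760469, minus strand) encodes the growth factor of macrophages. Its level was 1252, 1359 and 627 CPM in control, 1415, 1391 and 677 CPM with eutherian CRX, and 803, 829 and 599 CPM with metatherian CRX. Library 3 was the lowest in each condition, and metatherian CRX libraries 1 and 2 lay between the library 3 values and the other libraries of control and eutherian CRX. All 3 same-numbered pairs were lower with metatherian CRX and higher with eutherian CRX than control, as in 1.82% of all genes in one direction or the other. The log2 fold changes were -0.47 (SE 0.16, edgeR adjusted p = 0.20) and 0.11 (SE 0.16, edgeR adjusted p = 0.92), and -0.57 (SE 0.16, edgeR adjusted p = 0.31) for metatherian against eutherian CRX. Il1rl1, the receptor of interleukin 33, ranged from 592 to 1381 CPM, with log2 fold changes of -0.27 (SE 0.25) with metatherian CRX and 0.15 (SE 0.24) with eutherian CRX. Il33 itself, an alarmin released by damaged cells, was found at 4.26 to 14.7 CPM and had log2 fold changes of 0.45 (SE 0.24) and 0.075 (SE 0.24). The granulocyte factor Csf3 had at most 3 counts in any library. It was at 0 in 3 libraries, where 3 counts would be 0.0375 to 0.0456 CPM.

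The 4 NF-kB subunits among the 36 genes did not share a direction, with 2 below 0 and 2 above 0 in metatherian CRX against control. Rel, the subunit outside the 36, had log2 fold changes of -0.38 (SE 0.21) with metatherian CRX and -0.21 (SE 0.21) with eutherian CRX. Rela (chr19:5637440-5648130, plus strand), the main activating subunit, was measured at 72.9, 91.0 and 96.2 CPM in control, 75.2, 71.1 and 115 CPM with eutherian CRX, and 80.7, 100.6 and 65.1 CPM with metatherian CRX. These ranges overlapped, and the log2 fold changes were -0.063 (SE 0.23) with metatherian CRX and 0.0037 (SE 0.23) with eutherian CRX. Nfkb1 (chr3:135584655-135691547, minus strand), the precursor of the p50 subunit, was at 62.9, 72.9 and 72.3 CPM in control, 58.4, 60.2 and 68.8 CPM with eutherian CRX, and 47.9, 50.8 and 63.6 CPM with metatherian CRX. Each same-numbered pair was lower with metatherian CRX, although library 3 reached the lowest control library. Its log2 fold change was small but had the smallest error of the 27 genes, at -0.37 (SE 0.098, edgeR adjusted p = 0.13) with metatherian CRX and -0.15 (SE 0.098, edgeR adjusted p = 0.76) with eutherian CRX. Nfkb2 and Relb, the pair of the non-canonical pathway, ranged from 35.5 to 77.3 CPM and from 12.5 to 30.0 CPM. Both were highest in eutherian CRX library 3, and their log2 fold changes lay between 0.077 and 0.20 against control in both comparisons, with standard errors of 0.24 to 0.30.

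Among the inhibitors, Nfkbia (chr12:55489409-55492647, minus strand) encodes IkB-alpha, whose gene is a direct target of NF-kB and is often read as a gauge of its activity. Nfkbia was at 22.8, 29.9 and 24.3 CPM in control, 21.4, 23.6 and 37.5 CPM with eutherian CRX, and 20.5, 23.6 and 20.8 CPM with metatherian CRX. The conditions overlapped, with eutherian CRX library 3 the highest of all, and the log2 fold change with metatherian CRX was -0.24 (SE 0.20, edgeR adjusted p = 0.55). Nfkbiz (chr16:55811377-55838641, minus strand), an atypical nuclear IkB protein that takes part in secondary responses, was at 25.9, 38.1 and 34.2 CPM in control, 20.8, 25.9 and 27.3 CPM with eutherian CRX, and 24.8, 25.7 and 29.3 CPM with metatherian CRX. It was lower in all 3 pairs with either orthologue, with log2 fold changes of -0.41 (SE 0.12, edgeR adjusted p = 0.38) with eutherian CRX and -0.29 (SE 0.12, edgeR adjusted p = 0.26) with metatherian CRX. Nfkbib had log2 fold changes of -0.38 (SE 0.31) and -0.20 (SE 0.30) with metatherian and eutherian CRX. Birc3, an inhibitor of apoptosis in TNF signalling, stayed between 10.1 and 14.1 CPM in all 9 libraries, the narrowest range of the tested genes. Nfkbie and Tnfaip3, the IkB-epsilon and A20 feedback genes, stayed between 3.40 and 6.32 CPM and between 5.70 and 10.2 CPM, and Traf1 between 0.0749 and 1.04 CPM.

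Ptx3 (chr3:66219887-66225806, plus strand), a soluble pattern recognition protein, had the largest range of the 27 genes. It measured 1133, 808 and 119 CPM in control, 736, 959 and 7.18 CPM with eutherian CRX, and 157, 73.9 and 30.2 CPM with metatherian CRX. Library 3 was lowest in each condition, and eutherian CRX library 3 was lower than any metatherian CRX library. The log2 fold change with metatherian CRX was -2.56 (SE 0.94, edgeR adjusted p = 0.21), and -0.81 (SE 0.93, edgeR adjusted p = 0.89) with eutherian CRX. Tnfaip6 (chr2:52038113-52056681, plus strand), a hyaluronan-binding protein that works in the same matrix as Ptx3, was at 24.3, 17.8 and 4.71 CPM in control, 17.5, 21.4 and 3.07 CPM with eutherian CRX, and 4.13, 3.54 and 4.48 CPM with metatherian CRX. The metatherian CRX libraries were all below control, by little for library 3. Tnfaip6 had log2 fold changes of -1.51 (SE 0.62, edgeR adjusted p = 0.25) with metatherian CRX and -0.20 (SE 0.58, edgeR adjusted p = 0.97) with eutherian CRX.

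Cebpd (chr16:15887286-15889545, plus strand), a C/EBP transcription factor of the acute phase response, was at 34.5, 54.4 and 45.2 CPM in control, 27.6, 30.0 and 16.1 CPM with eutherian CRX, and 24.9, 35.2 and 5.99 CPM with metatherian CRX. All eutherian CRX libraries were below control, and metatherian CRX library 2 overlapped it. The log2 fold changes of Cebpd were -1.28 (SE 0.46, edgeR adjusted p = 0.20) with metatherian CRX and -0.96 (SE 0.44, edgeR adjusted p = 0.63) with eutherian CRX. Its relative Cebpb had values of -0.62 (SE 0.26, edgeR adjusted p = 0.26) and -0.32 (SE 0.26) over a range of 15.5 to 40.8 CPM. Tnfaip2 ranged from 48.3 to 317 CPM. All 3 metatherian CRX libraries of Tnfaip2 were above all 3 control libraries, yet the highest value was that of eutherian CRX library 3, and the log2 fold change with metatherian CRX was 0.98 (SE 0.43, edgeR adjusted p = 0.27). The acute phase genes Saa3 and Lcn2 reached at most 1.70 and 2.22 CPM, both in eutherian CRX libraries.

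The adhesion molecules hold leukocytes at the cell surface. Icam1 (chr9:21015960-21028797, plus strand) was at 92.4, 97.4 and 82.9 CPM in control, 113, 130.5 and 78.8 CPM with eutherian CRX, and 69.4, 83.9 and 65.9 CPM with metatherian CRX. Libraries 1 and 2 with eutherian CRX were the highest, and libraries 1 and 3 with metatherian CRX the lowest. Icam1 had log2 fold changes of -0.32 (SE 0.12, edgeR adjusted p = 0.22) with metatherian CRX, 0.22 (SE 0.12, edgeR adjusted p = 0.72) with eutherian CRX, and -0.54 (SE 0.12, edgeR adjusted p = 0.27) between the orthologues. Vcam1 (chr3:116110020-116129688, minus strand) was at 182, 175 and 208 CPM in control, 137, 172 and 161 CPM with eutherian CRX, and 181, 149 and 221 CPM with metatherian CRX. Its eutherian CRX libraries were all below control, by a log2 fold change of -0.26 (SE 0.14, edgeR adjusted p = 0.72), and its log2 fold change with metatherian CRX was -0.044 (SE 0.14, edgeR adjusted p = 0.89).

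**Figure D3:**
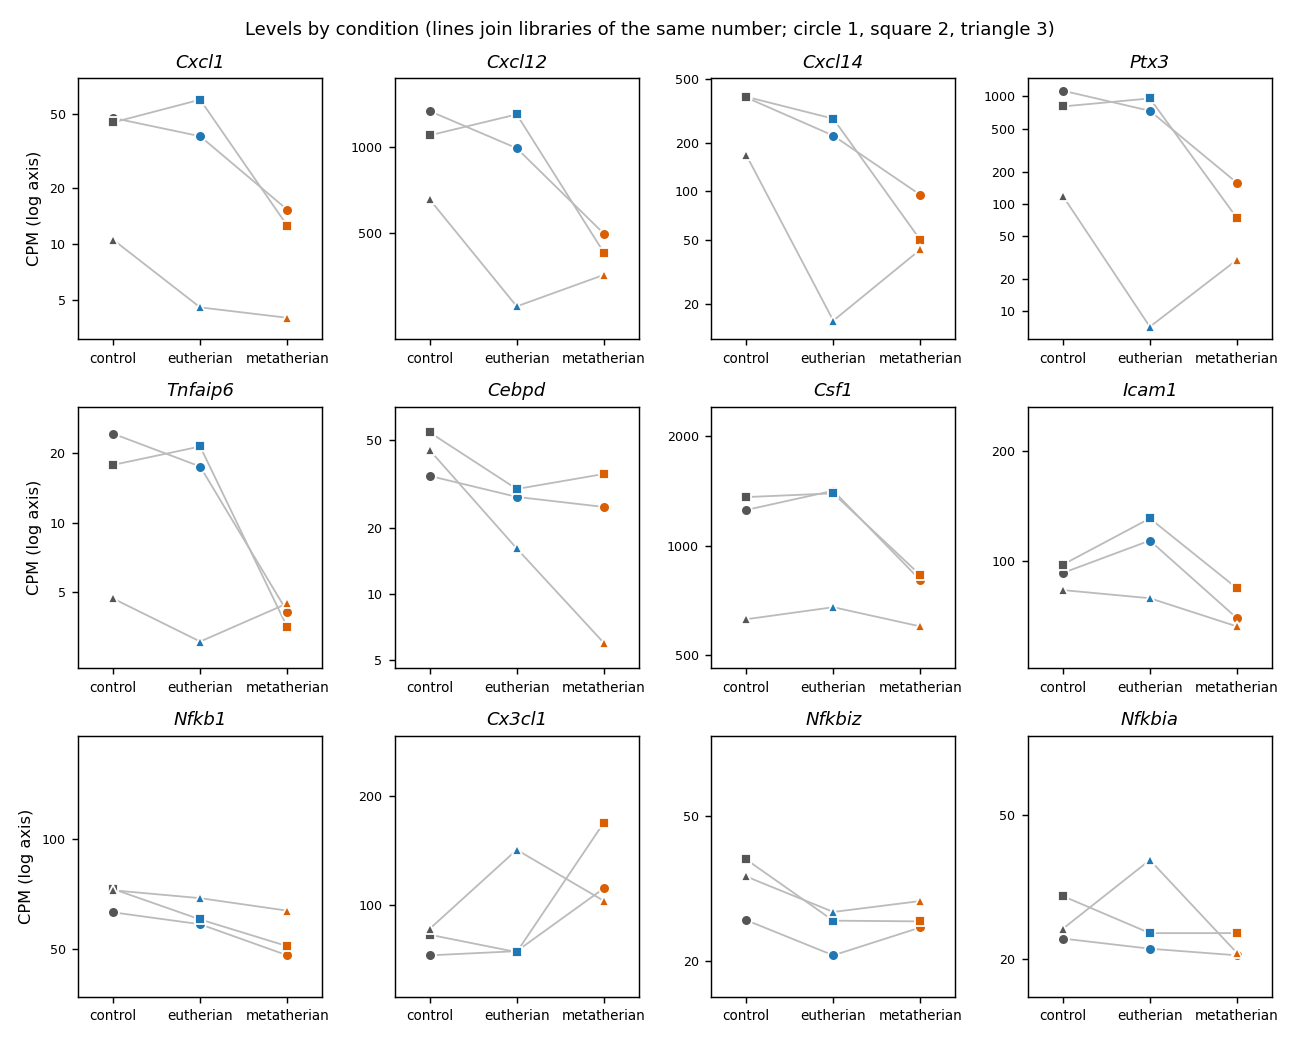
CPM (log axis) of 12 of the genes in the 3 libraries of each condition, with lines between libraries of the same number (circle 1, square 2, triangle 3). Cxcl12, Cxcl14 and Tnfaip6 are lower in every metatherian CRX library than in any control library, Cx3cl1 is higher, and the triangles of Cxcl1, Cxcl12, Cxcl14, Csf1, Ptx3 and Icam1 are the lowest of each condition.

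Separation of the libraries themselves was read against the same count over all genes. In metatherian CRX against control, Cxcl12, Cxcl14 and Tnfaip6 were lower without overlap (3 of 27, beside 12.2% of all genes), and Cx3cl1 and Tnfaip2 were higher without overlap (2 of 27, beside 11.1%). Neither share stands far from the background. Of the 27 genes, 14 were lower in all 3 same-numbered pairs (25.1% of all genes) and 3 were higher (22.3%), the latter being Cx3cl1, Il33 and Tnfaip2. In eutherian CRX against control, Cebpd and Vcam1 were lower without overlap (7.79%) and no gene was higher without overlap (6.19%). Lower values in all 3 pairs were found for 8 genes (17.3%), and Ccl20 and Csf1 were higher in all 3 (16.0%).

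Eutherian CRX was compared with control for the response to the human protein. None of the 27 genes passed the adjusted threshold in edgeR, where 59 of all genes were lower (0.584%) and 2 higher (0.0198%). Nfkbiz alone had an unadjusted p under 0.05 (1 of 27 lower, beside 6.34% of all genes, and 0 higher, beside 2.23%; 8.56% in either direction), and its adjusted p was 0.38. DESeq2 called 0 of the 27 (3.30% of all genes) and limma voom with quality weights called 7 (16.8% of all genes), namely Ccl2, Ccl7, Cebpd, Cxcl14, Icam1, Nfkbiz and Vcam1. The median log2 fold change was -0.093, beside 0.0013 over all genes, and 14 of the 27 genes were below 0. Both comparisons with control share the 3 control libraries.

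Metatherian CRX was set directly against eutherian CRX to test the difference between the orthologues. The chemokine Cxcl1, the growth factor Csf1 and the adhesion molecule Icam1 were lower at an unadjusted p under 0.05 (3 of 27, beside 4.13% of all genes lower and 7.41% higher, or 11.5% in either direction), at 40.2%, 67.3% and 68.8% of the eutherian CRX level in the fit. None passed the adjusted threshold in edgeR, and neither did any of the 10100 genes. DESeq2 called Csf1, Cxcl1 and Icam1 (3.14% of all genes), and limma voom with quality weights called 17 (48.3%). Cxcl1, Csf1, Icam1 and Nfkb1 were lower in all 3 same-numbered pairs (4 of 27, beside 13.6%), no gene was higher in all 3 (18.7%), and the libraries of the orthologues overlapped for every one of the 27 genes (5.29% of all genes were lower without overlap and 6.25% higher). Of the other genes named above as lower with metatherian CRX than in control, the log2 differences against eutherian CRX were -1.76 (SE 1.03) for Ptx3, -1.31 (SE 0.63) for Tnfaip6, -0.98 (SE 0.69) for Cxcl14 and -0.78 (SE 0.35) for Cxcl12. They were -0.32 (SE 0.44) for Cebpd and -0.21 (SE 0.098) for Nfkb1.

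The 9 genes not tested were followed with filterByExpr as the only filter, which admits 8 of them and 14599 genes in all. No gene of the 35 then passed the adjusted threshold in edgeR. At an unadjusted p under 0.05 there were 13 of the 35 genes with metatherian CRX (20.4% of all genes), 3 with eutherian CRX (9.65%) and 7 between the orthologues (11.7%). Traf1 was at 0.0767, 0.252 and 0.487 CPM in control, 0.0749, 0.118 and 1.04 CPM with eutherian CRX, and 0.575, 0.822 and 0.668 CPM with metatherian CRX, with a log2 fold change of 1.78 (SE 0.72, edgeR adjusted p = 0.23) with metatherian CRX. All metatherian CRX libraries of Traf1 were above control. Lcn2, an iron-chelating acute phase protein, was at 0.230, 0.394 and 0.172 CPM in control, 0.624, 1.06 and 2.22 CPM with eutherian CRX, and 0.300, 0.477 and 0.122 CPM with metatherian CRX. Eutherian CRX libraries were the 3 highest, and Lcn2 had log2 fold changes of 2.32 (SE 0.65, edgeR adjusted p = 0.26) for eutherian CRX against control and -2.11 (SE 0.65, edgeR adjusted p = 0.30) for metatherian against eutherian CRX. Saa3 was at 0.249, 0.558 and 0.1002 CPM in control, 0.262, 1.70 and 0.992 CPM with eutherian CRX, and 0.2002, 0.0928 and 0.0912 CPM with metatherian CRX. The same log2 values of Saa3 were 1.75 (SE 0.74, edgeR adjusted p = 0.51) and -2.70 (SE 0.80, edgeR adjusted p = 0.29), and its eutherian CRX library 1 lay within the control range. All eutherian CRX libraries of Saa3 were above all its metatherian CRX libraries. Ccl9 was at 1.305, 1.18 and 0.988 CPM in control, 0.686, 0.738 and 0.992 CPM with eutherian CRX, and 1.85, 1.59 and 1.25 CPM with metatherian CRX. The metatherian CRX libraries of Ccl9 were above all eutherian CRX libraries, by a log2 difference of 0.94 (SE 0.29, edgeR adjusted p = 0.31). Cxcl16 was at 4.24, 4.45 and 5.57 CPM in control, 4.13, 6.07 and 11.8 CPM with eutherian CRX, and 4.12, 3.38 and 5.74 CPM with metatherian CRX. Its log2 difference between the orthologues was -0.65 (SE 0.25, edgeR adjusted p = 0.39), and their ranges overlapped. Libraries without overlap were not counted over the 14599 genes. Over the 10100 genes of the main fit, 11.1% were higher without overlap with metatherian CRX and 6.19% with eutherian CRX, each against control. Between the orthologues, 6.25% were higher and 5.29% lower with metatherian CRX.

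The genes differed in how much they varied between libraries of the same condition. The median within-condition SD of log2 CPM was 0.46 for the 27 genes and 0.22 for all genes tested, and 12 of the 27 were among the 10% of genes with the largest SD. Ptx3 ranked 5th of 10100 genes with an SD of 2.60, Cxcl5 19th with 2.22, Ccl5 86th with 1.499, Cxcl1 95th with 1.47 and Cxcl14 104th with 1.44. Nfkb1 was at the other end, at rank 7037 with an SD of 0.16. Taken by condition, library 3 was the lowest for 10 of the 27 in control (40.3% of all genes), 11 with eutherian CRX (46.9%) and 16 with metatherian CRX (42.3%), and the highest for 12 (42.6%), 15 (45.7%) and 10 (41.0%). In 8 of the 27 genes, library 3 was the lowest in all 3 conditions (Cxcl1, Cxcl5, Cxcl12, Cxcl14, Ccl20, Csf1, Ptx3 and Icam1), beside 13.3% of all genes, and in 5 it was the highest (Ccl2, Ccl7, Il33, Birc3 and Tnfaip2), beside 13.1%. In Cxcl1, Cxcl5, Ccl20 and Ptx3, library 3 was over 1 log2 unit below the mean of libraries 1 and 2 in all 3 conditions (4 of 27, beside 0.960% of all genes).

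The size of the gap differed by condition. For Ptx3, library 3 minus the mean of libraries 1 and 2 was -3.01 log2 units in control, -6.87 for eutherian CRX and -1.84 for metatherian CRX. The gaps of Cxcl5 were -1.53, -5.92 and -2.56, and those of Cxcl14 were -1.19, -4.00 and -0.66. Ccl2 and Tnfaip2 ran the other way, with gaps of 0.62, 2.16 and 0.97 for Ccl2 and 0.88, 2.62 and 0.60 for Tnfaip2. Over all genes, the middle 90% of gaps lay between -0.59 and 0.81 in the control libraries, between -1.27 and 1.09 for eutherian CRX, and between -1.01 and 0.59 for metatherian CRX. The summed fibroblast markers given above were also lowest in library 3 of each condition, and their part in the result was not tested.

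**Figure D4:**
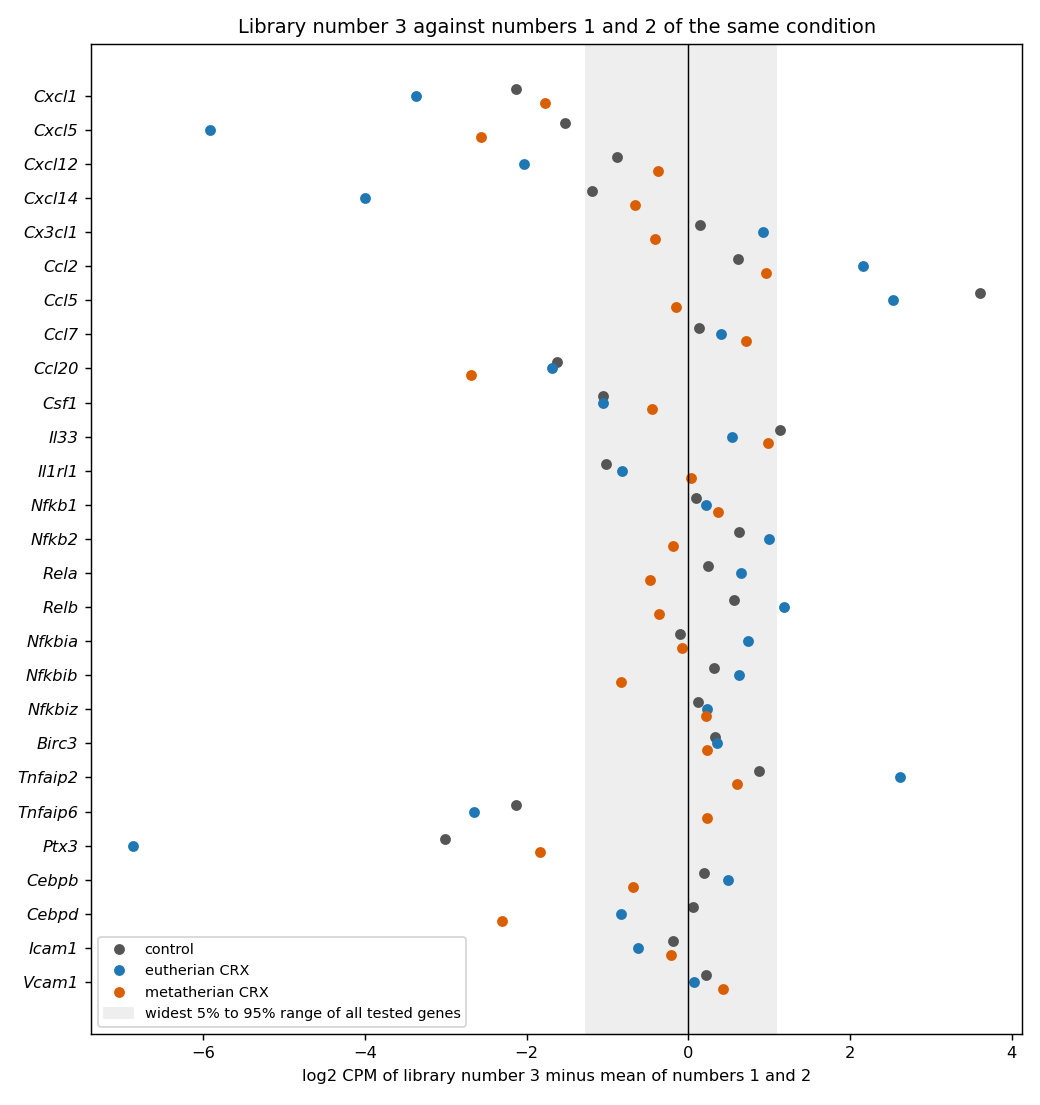
Log2 CPM of library 3 minus the mean of libraries 1 and 2 of the same condition (horizontal axis) for the 27 tested genes, with the widest range that holds the middle 90% of all genes shaded. Ptx3, Cxcl5 and Cxcl14 lie farthest to the left with eutherian CRX (-6.87, -5.92 and -4.00), and Ccl5 in control (3.61) farthest to the right.

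Without the 3 libraries numbered 3, the same fit over 6 libraries tested 10025 genes and 26 of the 36 genes. With metatherian CRX against control, 14 of the 26 genes then passed the adjusted threshold, 6 of them chemokines, beside 22.2% of all genes. The 11 that fell (11.1% of all genes) were Cxcl1, Cxcl5, Cxcl12, Cxcl14, Csf1, Il1rl1, Nfkb1, Tnfaip6, Ptx3, Cebpd and Icam1, and the 3 that rose (11.0%) were Cx3cl1, Ccl5 and Tnfaip2. In this fit the log2 fold change of Ptx3 was -3.11 (SE 0.32, edgeR adjusted p = 0.0012), that of Tnfaip6 -2.45 (SE 0.19, edgeR adjusted p = 4.8e-04) and that of Cxcl14 -2.44 (SE 0.28, edgeR adjusted p = 0.0018). Cxcl1 had -1.73 (SE 0.21, edgeR adjusted p = 0.0023), Cxcl12 -1.39 (SE 0.17, edgeR adjusted p = 0.0022), Csf1 -0.68 (SE 0.091, edgeR adjusted p = 0.0033) and Cx3cl1 0.83 (SE 0.14, edgeR adjusted p = 0.0073). The subunit Rela, at 0.14 (SE 0.11), and the inhibitor Nfkbia, at -0.25 (SE 0.10, edgeR adjusted p = 0.12), did not pass the threshold. The libraries numbered 3 were left out because they stood apart in these same data, which by itself lowers the spread in the fit. Over all genes, calls rose from 3 to 2221. The small p-values of this fit are therefore no independent support for a response. With 2 libraries per condition, leaving out library 3 thus changed the call of these 14 genes. The log2 fold change of Cebpd went from -1.28 with 9 libraries to -0.56, that of Il1rl1 from -0.27 to -0.64 and that of Ccl5 from 0.86 to 1.95.

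In the same 6 libraries, none of the 26 genes was called with eutherian CRX against control (2.94% of all genes), and 7 had an unadjusted p under 0.05 (16.1% of all genes). The log2 fold changes with eutherian CRX were then -0.14 (SE 0.29) for Ptx3, 0.057 (SE 0.22) for Cxcl5, 0.059 (SE 0.20) for Cxcl1, -0.088 (SE 0.17) for Cxcl12 and -0.61 (SE 0.26) for Cxcl14, where all 9 libraries gave -0.81, -1.03, -0.29, -0.40 and -1.24. The values of Cxcl1 and Cxcl5 thus turned from below to above 0. Over all 18 alternatives, the log2 fold change of Ptx3 with eutherian CRX lay between -1.99 and 0.037. Between the orthologues 13 of the 26 were called (22.5% of all genes), 9 lower (9.86%) and 4 higher (12.7%) with metatherian CRX. The 9 were Cxcl1, Cxcl5, Cxcl12, Cxcl14, Csf1, Il1rl1, Tnfaip6, Ptx3 and Icam1, and the 4 were Ccl2, Ccl5, Cx3cl1 and Tnfaip2. Ptx3 was lower by a log2 difference of -2.97 (SE 0.32, edgeR adjusted p = 0.0017), Tnfaip6 by -2.35 (SE 0.19, edgeR adjusted p = 7.5e-04) and Tnfaip2 was higher by 1.47 (SE 0.17, edgeR adjusted p = 0.0021). Leaving out eutherian CRX library 3 alone gave 6 called genes with metatherian CRX against control (8.83% of all genes), namely Cxcl1, Cxcl5, Cxcl12, Cxcl14, Ptx3 and Tnfaip2, and 6 between the orthologues (3.47%). Leaving out metatherian CRX library 3 alone gave Csf1 and Tnfaip6 in both (4.92% and 1.48%). Leaving out control library 3 alone gave 0 called genes in either comparison, among the 36 and in all, and with metatherian CRX against control Csf1, Cxcl1 and Nfkb1 alone then had an unadjusted p under 0.05 (14.0% of all genes).

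**Figure D5:**
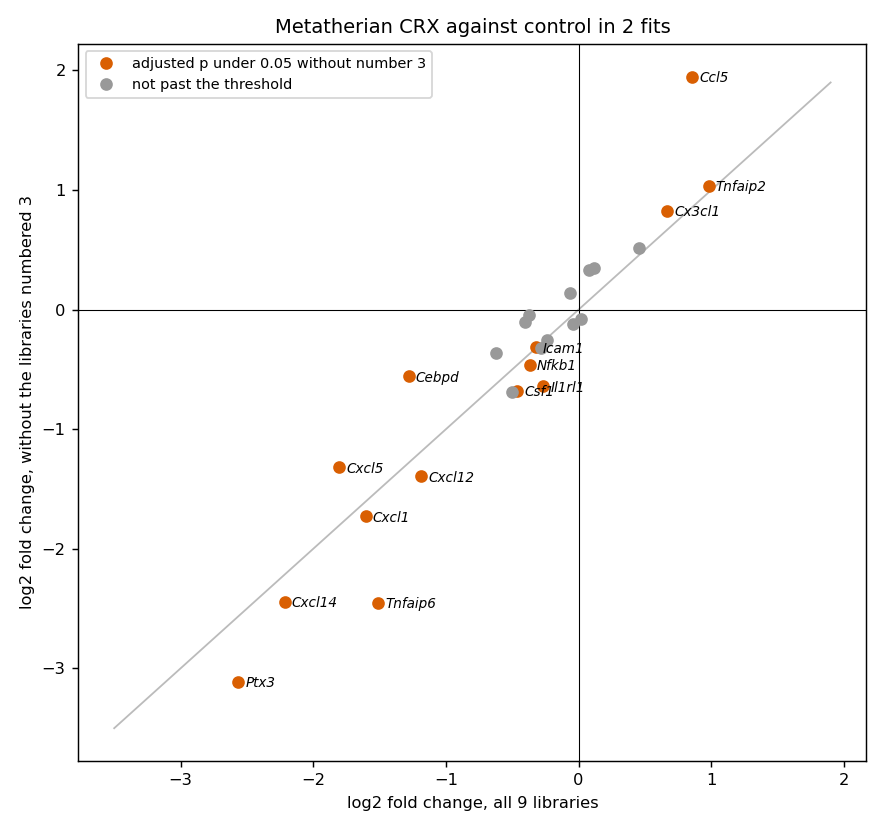
Log2 fold change of metatherian CRX against control in all 9 libraries (horizontal axis) and without the libraries numbered 3 (vertical axis), with the line of equal values. The 14 genes past the adjusted threshold in the smaller fit are named, and 11 of them lie below 0 on the vertical axis.

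The genes upstream and beside this group were counted from lists of the pathway. Of 10 receptors that feed NF-kB, 8 were tested and none passed the adjusted threshold in edgeR; at an unadjusted p under 0.05 with metatherian CRX, Tlr4 and Tnfrsf1b were higher and Il1r1 and Tnfrsf1a lower (4 of 8, beside 19.5% of all genes in either direction), and with eutherian CRX there were 0 (8.56%). Shares of the other lists below read against the same 19.5% and 8.56%. Tlr4, the receptor of bacterial lipopolysaccharide, was at 32.5, 25.9 and 23.1 CPM in control, 24.5, 27.9 and 16.9 CPM with eutherian CRX, and 54.7, 40.4 and 32.3 CPM with metatherian CRX. For Tlr4 the log2 fold change was 0.63 (SE 0.15, edgeR adjusted p = 0.11) with metatherian CRX and -0.24 (SE 0.15, edgeR adjusted p = 0.75) with eutherian CRX. Il1r1, the interleukin 1 receptor, had a log2 fold change of -0.80 (SE 0.29, edgeR adjusted p = 0.21) with metatherian CRX. All 15 adaptors and kinases were tested and none was called, with Myd88 and Tab1 lower at an unadjusted p under 0.05 with metatherian CRX and 0 with eutherian CRX. The median log2 fold changes of the 15 were -0.10 and -0.044.

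Of 12 further NF-kB and feedback genes, 11 were tested and none was called. At an unadjusted p under 0.05, 1 was lower (Bcl3) and 1 higher (Tnfaip8) with metatherian CRX, and 1 was lower (Bcl3) with eutherian CRX. Tnfaip8, a gene induced by TNF, had log2 fold changes of 0.57 (SE 0.11, edgeR adjusted p = 0.087) with metatherian CRX and 0.15 (SE 0.11, edgeR adjusted p = 0.80) with eutherian CRX. Bcl3, a nuclear IkB protein, had log2 fold changes of -1.16 (SE 0.31, edgeR adjusted p = 0.12) with metatherian CRX and -0.92 (SE 0.30, edgeR adjusted p = 0.43) with eutherian CRX. Of 17 further inflammatory ligands, 16 were listed and 4 tested, and none was called. Ccl11, the eosinophil attractant, had log2 fold changes of -1.17 (SE 0.38, edgeR adjusted p = 0.17) and -1.86 (SE 0.40, edgeR adjusted p = 0.16). The inducing cytokines were scarce: Tnf reached at most 0.125 CPM, Il1a at most 0.266 CPM and Il1b at most 0.011 CPM in any library. Only 2 of 10 chemokine receptors were tested. Cxcr6, the receptor of Cxcl16, had a log2 fold change of 0.89 (SE 0.21, edgeR adjusted p = 0.11) with metatherian CRX and -0.57 (SE 0.22, edgeR adjusted p = 0.54) with eutherian CRX, and neither passed.

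Markers of other cells moved with some of these values. The 9 listed macrophage and leukocyte markers summed to 44.6, 22.4 and 14.7 CPM in control, 25.4, 21.3 and 8.51 CPM with eutherian CRX, and 6.78, 8.71 and 13.5 CPM with metatherian CRX. All metatherian CRX libraries were below control. None of the 9 markers was at 0 in all libraries, and the most abundant was Lyz2, at 0.513 to 23.5 CPM. Ptprc, the pan-leukocyte marker, stayed between 0.106 and 1.63 CPM. Of 3 markers tested, Cd68 and Tyrobp were lower with metatherian CRX at an unadjusted p under 0.05, and none was called. Of the 8 fibroblast markers, 6 were lower and 1 was higher with metatherian CRX at an unadjusted p under 0.05, with a median log2 fold change of -1.21, and 3 were lower with eutherian CRX, with a median of -0.36. Vim, the intermediate filament of mesenchymal cells, was between 3884 and 5648 CPM. Of 4 epithelial markers, Krt18 was tested. It was at 0.269, 0.361 and 3.01 CPM in control, 0.0998, 0.221 and 11.8 CPM with eutherian CRX, and 1.03, 1.54 and 8.22 CPM with metatherian CRX. Library 3 was the highest of each condition, and the log2 fold changes were 1.98 (SE 0.75, edgeR adjusted p = 0.22) with metatherian CRX, at an unadjusted p under 0.05, and 0.63 (SE 0.78, edgeR adjusted p = 0.90) with eutherian CRX. The part of these markers in the chemokine values was not tested.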

How the data were processed

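RNA-seq was analysed in 9 libraries of MEFs, 3 each of control, eutherian CRX and metatherian CRX, grouped by their titles. The authors aligned paired reads of 75 bp with STAR to mm10 (GRCm38) and deposited raw counts per gene from featureCounts, neither normalized nor pooled. The annotation release, strand option and handling of reads with several alignments are not given in the sources used here, so that overlapping, antisense and near-identical genes may share reads. The labels put 48 h of recovery after the 5 days of selection, whereas the study's methods put 48 h before it and culture overnight after it.

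From the counts, CPM and FPKM over merged exons, both with TMM factors, were computed. The table held 22068 genes, of which 3756 had no count and 2 names were repeated. Depth was 54145701 to 94699657 counts, and limits from a count of 0 (3 counts) cover counting error only. Replicates differed far beyond sampling noise (chi-square per degree of freedom of 30.8 or more), and each was counted as 1 sample. edgeR 4.0.16 (glmQLFit, glmQLFTest) in R 4.3.3 tested 10100 genes (filterByExpr, mean FPKM per library total above 2 in at least 1 condition) over all 9 libraries in a model blocked on the replicate number, and p-values were adjusted over all genes tested by Benjamini-Hochberg. The block was used because the study prepared its samples in pairs. Its text does not tie the pairs to numbers. Log2 CPM used a prior count of 2. limma 3.58.1 and DESeq2 1.42.0 were alternatives. The tests were tested on simulated data with the same dispersion for all genes and no library set apart. The simulation does not show how the tests behave with the libraries numbered 3.

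The genes, lists, tests and alternatives were chosen with earlier results of these data known. All 36 genes are named. Those with an unadjusted p under 0.05 in any comparison over 9 libraries, those first tested with filterByExpr alone that reached it there, and the gene with the highest mean FPKM of each role, have their value in every library. Promoters came from RefSeq (GRCm38.p6).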

Additional observations from a re-analysis of the deposited data

Results flagged for a closer look

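Csf1 stood out because its values moved to opposite sides of control with the 2 orthologues: all 3 metatherian CRX libraries were below, and all 3 eutherian CRX libraries above, the control library of the same number. The direct difference, metatherian minus eutherian CRX, was -0.57 on the log2 scale (SE 0.16, edgeR adjusted p = 0.31), so that it did not pass the adjusted test. Such opposite directions in all pairs were found for 184 of the 10100 genes tested (1.82%). The eutherian CRX side was small, at 0.11 on the log2 scale (SE 0.16, edgeR adjusted p = 0.92), with pairs of 0.18, 0.034 and 0.11. It was thus not separated from 0, and the metatherian CRX pair of number 3 was -0.066. Pairing by number is itself not established.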

How the results depend on the processing

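The 14 log2 fold changes of single genes that were tested at an unadjusted p under 0.05 kept their direction in all 18 alternatives (252 values, of which 204 kept their side of the adjusted threshold and 48 crossed below it). These 14 were picked by their p in the same libraries that the alternatives refit, so that the kept direction is no independent support. Counts of calls moved. For metatherian CRX against control (3 genes in all, 0 of the 27, 10 at an unadjusted p under 0.05), all genes called were 1004 with DESeq2, 4665 with limma voom, 398 with only the 6 libraries compared and 2221 without the libraries numbered 3. Of the chemokine and NF-kB genes, 5, 21, 6 and 14 were called in the same order, and 21 (voom) and 19 (without number 3) had an unadjusted p under 0.05, beside 53.4% and 36.2% of all genes. For eutherian CRX against control (61, 0 and 1), all genes called were 109 without a filter, 333 with DESeq2, 1697 with voom, 0 with 6 libraries and 295 without number 3. Voom called 7 of the group. At an unadjusted p under 0.05 there were 3 with filterByExpr alone, 4 without a filter, 2 with DESeq2, 12 with voom, 2 with 6 libraries and 7 without number 3, beside 9.65%, 8.02%, 10.3%, 33.4%, 8.49% and 16.1% of all genes. Between the orthologues (0, 0 and 3), all genes called were 317, 4883 and 2258 with DESeq2, voom and without number 3, of the group 3, 17 and 13, and at an unadjusted p under 0.05 there were 7 (filterByExpr alone), 8 (no filter), 5 (DESeq2), 18 (voom) and 17 (without number 3), beside 11.7%, 9.69%, 13.7%, 55.5% and 37.2% of all genes. With upper-quartile factors, the 748 higher and 417 lower genes at an unadjusted p under 0.05 became 597 and 574. The cause of these shifts was not tested.

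Without the replicate block, 0 genes passed in any comparison, and 5 of the group (from 10) had an unadjusted p under 0.05 with metatherian CRX (13.0% of all genes). The 5 were Cx3cl1, Cxcl12, Cxcl14, Nfkb1 and Tnfaip6, whereas Cxcl1, Ptx3, Cebpd, Csf1 and Icam1 no longer had one. Between the orthologues there were 2 (from 3), Icam1 and Tnfaip6 (6.4% of all genes), so that Cxcl1 and Csf1 no longer had one, with log2 differences of -1.68 (SE 0.90) and -0.64 (SE 0.36). Deviations from the condition means correlated above 0.1 in 8 of 9 same-numbered pairs of libraries (lowest 0.0036, highest 0.75) and in 5 of 18 others (highest 0.72). Control library 1 correlated best with a library of another number, eutherian CRX library 2 (0.72). The latter correlated at 0.67 with metatherian CRX library 1, but at 0.28 with control library 2 and at 0.0036 with metatherian CRX library 2. Pairing by number is thus not established.

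Over fits that left out 1 library each, the lowest and highest counts were 0 and 893 genes in all, 0 and 6 of the group, and 3 and 15 at an unadjusted p under 0.05 with metatherian CRX. They were 0 and 117, 0 and 0, and 0 and 5 with eutherian CRX, and 0 and 351, 0 and 6, and 3 and 11 between the orthologues. Over the same fits, the share of all genes at an unadjusted p under 0.05 ran from 10.1% to 25.7%, from 5.02% to 13.6% and from 4.32% to 21.1%. Csf3 had at most 3 counts in a library and was not tested.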
